A study of Mus musculus with 3 samples.

Results

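The Wnt ligands, their receptors and the proteins that tune Wnt signalling make up 49 of the 18245 genes measured here. They were chosen by symbol alone: the genes named Wnt, Fzd, Sfrp, Dkk or Rspo with a number, together with Frzb, Lrp5, Lrp6, Lgr4, Lgr5, Lgr6, Axin1, Axin2, Lef1 and Tcf7. No measured value entered the choice. By role, the set held 18 Wnt ligands, 10 Frizzled receptors, 2 Lrp coreceptors, 5 secreted Frizzled-related inhibitors, 3 Dickkopf proteins, 4 R-spondins, 3 Lgr receptors for R-spondins and 4 intracellular proteins.

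RNA was sequenced from 3 kinds of cultured mouse cell, all labelled as ventricular epicardium of C57BL/6 hearts and taken from young adults, with no transgene or targeted allele named. CDC are cardiosphere-derived cells, mesenchymal cells that grew out of peeled epicardium, passed through floating cardiospheres and were replated as a monolayer. CDC-EpiC are an epithelial clone that formed in CDC medium with 10 µM SB-431542, which blocks the kinase of the type I TGF-beta receptor, within 2 weeks and was then moved to a new plate. pEpiC are primary epicardial cells released by digesting the heart, not the peeled epicardium, with collagenase and trypsin and put into culture. Each kind had 3 libraries (n = 3 in every value below), which GEO lists as 1 sample for each kind, and the study's methods give a different number of biological replicates. The labels speak of separate samples but not of separate animals or cultures, so p-values measure the spread between these libraries, which may be technical. The CDC-EpiC libraries come from a single picked clone, and the inhibitor, the choice of the clone and the epithelial state cannot be told apart.

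Libraries held 22008833 to 22756045 estimated counts each. The summed level of 10 epicardial and mesothelial markers was 4933 to 5715 CPM (counts scaled to a common library total) in CDC-EpiC, against 543 to 572 in pEpiC and 566 to 600 in CDC. The list was mixed between pEpiC and CDC, with 5 markers higher and 5 lower. Wt1 averaged 10.1 CPM in CDC, 120 in CDC-EpiC and 50.9 in pEpiC, Tcf21 averaged 12.3, 28.0 and 102, Tbx18 92.8, 56.6 and 48.9, and Upk3b 230, 2664 and 69.1, while Muc16 was at or under 3 counts in every CDC library. The 8 fibroblast markers summed to 22460 to 24530 CPM in pEpiC, 6463 to 8460 in CDC and 3802 to 4524 in CDC-EpiC. The 10 macrophage markers summed to 891, 338 and 311 CPM in the 3 pEpiC libraries, 57.9 to 60.9 in CDC and 22.6 to 25.1 in CDC-EpiC, where 7 of the 10 were at or under 3 counts in every library, the markers Ptprc and Adgre1 among them. A list of 9 blood and liver genes summed to 95.9 and 129 CPM in CDC libraries 1 and 2 and to 0.819 in CDC library 3. The 5 smooth muscle markers summed to 2010 to 2507 CPM in CDC, 323 to 464 in CDC-EpiC and 948 to 978 in pEpiC, the 10 endothelial markers to 40.6 to 55.6, 9.18 to 11.9 and 89.4 to 107, and the 10 cardiomyocyte markers to 9.69 to 28.6, 11.6 to 13.7 and 137 to 154. The part of these other cell types in the Wnt results was not tested. In bulk RNA, fewer cells of a type and less RNA per cell cannot be told apart. Without pEpiC library 1, 26 of 32 Wnt members passed the test between pEpiC and CDC, against 30 of 32 with it, and without CDC library 3 the count was again 30. The calls lost without pEpiC library 1 were those of Axin1, Lrp5, Tcf7 and Wnt9a. Such losses were not particular to that library. Leaving out CDC library 1 lost the calls of Fzd8, Lrp5, Tcf7 and Wnt9a. Leaving out pEpiC library 3 lost those of Fzd8, Lrp5 and Tcf7.

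Wnt proteins are secreted lipid-modified ligands that bind a Frizzled receptor, with Lrp5 or Lrp6 as coreceptor for the branch that stabilises beta-catenin, which then acts in the nucleus with Lef1, Tcf7 and their relatives. R-spondins bind Lgr receptors and keep Frizzled and Lrp proteins at the cell surface, whereas secreted Frizzled-related proteins bind Wnt ligands outside the cell and most Dickkopf proteins block Lrp5 and Lrp6. In the heart, Wnt signals are known for their part in the growth of the epicardium and in the transition of epicardial cells to mesenchyme.

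Among the 49 members, 22 reached a mean of 10 CPM in at least 1 kind of cell, 11 peaked between 1 and 10 CPM, and 16 stayed under 1 CPM in all 3 kinds. CPM here were scaled by the trimmed mean of M-values (TMM). A level of 1 CPM or more was reached by 29 members in CDC, 29 in CDC-EpiC and 30 in pEpiC. The Frizzled receptors, coreceptors and secreted inhibitors were mostly well measured (8 of 10, 2 of 2 and 4 of 5 at 10 CPM or more), while 10 of the 18 Wnt ligands stayed under 1 CPM. Replicates were close for the members at 10 CPM or more in a kind. The SD was 8.55% of the mean in CDC (median of 15 members), 8.10% in CDC-EpiC (17 members) and 5.16% in pEpiC (20 members), and the widest was 22.5%, for Dkk3 in CDC.

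Between pEpiC and CDC, 30 of the 32 members tested passed an adjusted p of 0.05 (Benjamini-Hochberg over all genes tested, from the quasi-likelihood test of edgeR), with 21 up and 9 down in pEpiC. Over all 13526 genes tested, 78.3% passed, 39.8% up and 38.5% down. Changes of 2-fold or more were found in 18 of the 32 members, 14 up and 4 down, against 30.1% of all genes. The median log2 change was 0.95 for the members tested and 0.02 for all genes. The split of the calls moved with the scale: 21 higher and 5 lower with library size alone, and 24 higher and 4 lower on log2(TPM + 1), where the median of all genes was itself at 0.41 (0.13 with library size alone).

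Between CDC-EpiC and CDC, 29 of 32 members passed, 15 higher and 14 lower in CDC-EpiC, where 68.8% of 12976 genes passed, 34.2% higher and 34.6% lower. Changes of at least 2-fold were found in 17 members, 8 up and 9 down, and in 21.7% of all genes. The median log2 change was 0.20 for the members and 0.00 for all genes. Between CDC-EpiC and pEpiC, 26 of 32 passed, 13 in each direction, where 81.9% of 13547 genes passed, 40.3% higher and 41.5% lower in CDC-EpiC. Here 18 members changed at least 2-fold, 7 up and 11 down in CDC-EpiC, against 35.9% of all genes, and the median log2 change was -0.15, with -0.02 for all genes. On log2(TPM + 1) the members split into 10 higher and 17 lower, with a median of -0.33 for all genes. These 3 comparisons share libraries, so they are not independent of each other.

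**Figure D1:**
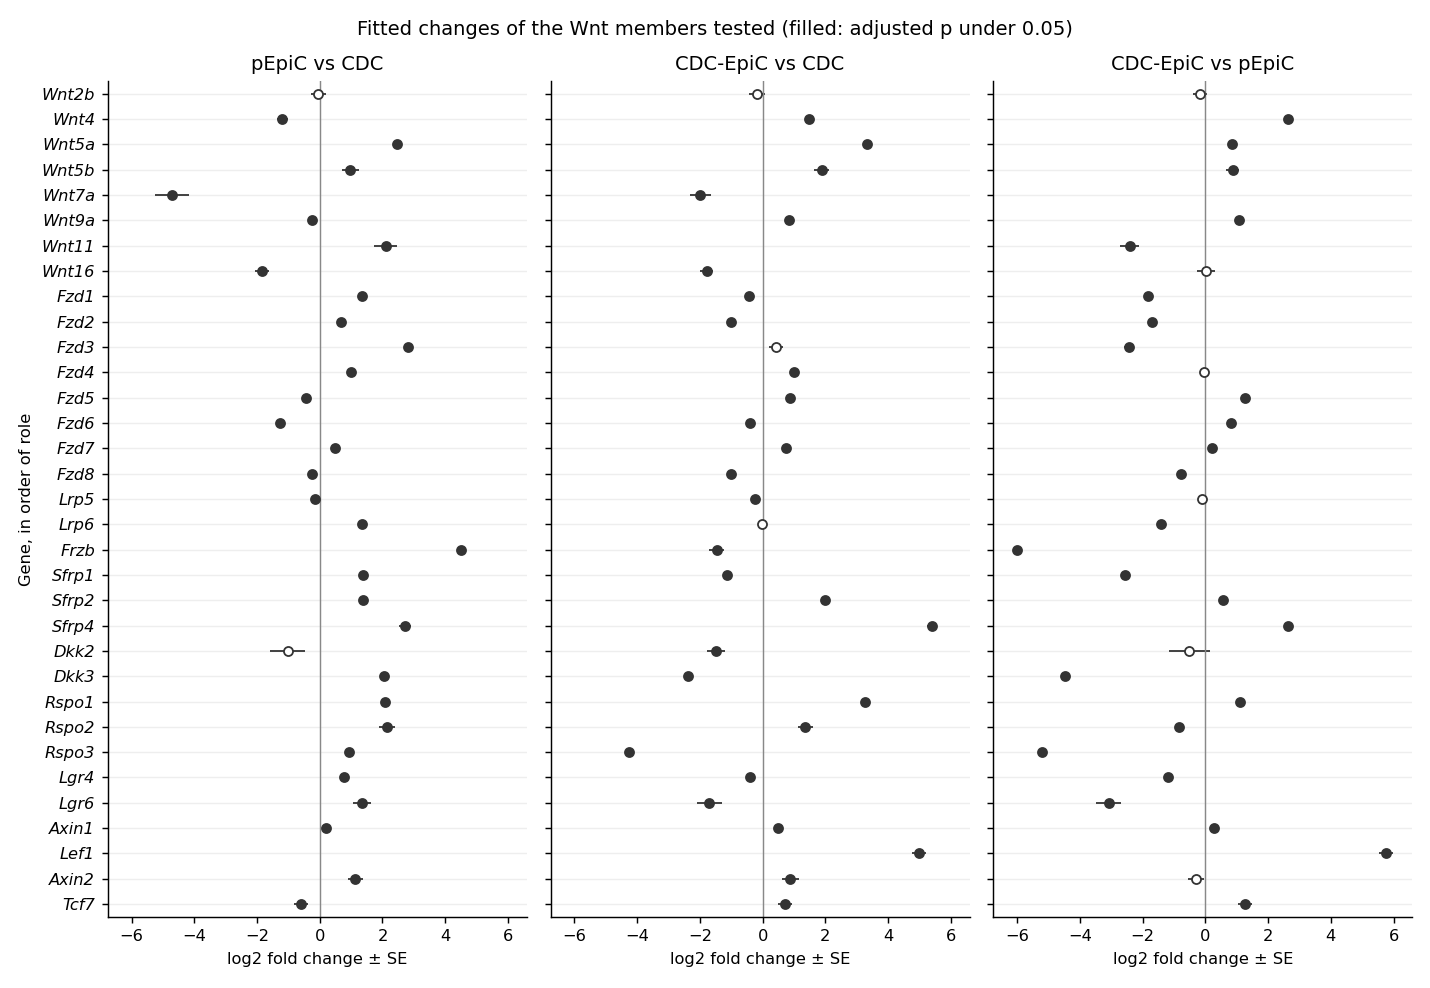
Fitted log2 fold changes (x axis, first kind over second) with standard errors for the Wnt members tested in the 3 comparisons, 1 row a gene in order of role. Filled points passed an adjusted p of 0.05, open points did not. Frzb lies farthest right in the left panel at 4.51, Sfrp4 in the middle panel at 5.41, and Frzb farthest left in the right panel at -6.02.

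The Wnt ligands that CDC-EpiC expressed most were Wnt5a, Wnt4 and Wnt9a, and all 3 were higher in CDC-EpiC than in either other kind. Wnt5a acts mainly through branches that do not use beta-catenin, while Wnt4 is known from kidney and gonad development and Wnt9a from joints and the developing heart valves. The Wnt5a gene lies on chr14:28504543-28527448, Wnt4 on chr4:137277635-137299501 and Wnt9a on chr11:59306849-59333552 (GRCm38.p6, RefSeq).

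Wnt5a stood at 7.88, 8.30 and 10.2 CPM in the CDC libraries, 84.5, 92.3 and 90.2 in CDC-EpiC and 50.8, 51.0 and 46.2 in pEpiC. The 3 kinds did not overlap, with CDC lowest and CDC-EpiC highest. Its log2 change was 3.33 ± 0.10 (SE, adjusted p = 2.81e-13) in CDC-EpiC over CDC, a 10.1-fold difference, and 2.45 ± 0.09 (adjusted p = 9.83e-09) in pEpiC over CDC. CDC-EpiC exceeded pEpiC by 0.84 (log2, adjusted p = 3.57e-07). Wnt4 stood at 7.93, 10.3 and 9.24 CPM in CDC, 25.5, 25.5 and 25.7 in CDC-EpiC and 5.13, 3.90 and 3.23 in pEpiC. Again no library of a kind overlapped another kind, but here pEpiC was lowest. The log2 change was 1.47 ± 0.10 (adjusted p = 3.74e-09) in CDC-EpiC over CDC, 2.63 ± 0.14 (adjusted p = 4.91e-08) in CDC-EpiC over pEpiC, and -1.20 (adjusted p = 0.00012) in pEpiC over CDC.

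Wnt9a stood at 14.3, 14.1 and 12.8 CPM in CDC, 22.03, 26.2 and 26.7 in CDC-EpiC and 11.1, 12.3 and 11.96 in pEpiC. CDC-EpiC lay above both other kinds, with a log2 change of 0.85 against CDC (adjusted p = 1.46e-06) and of 1.07 against pEpiC (adjusted p = 1.64e-06). Between pEpiC and CDC the log2 change of Wnt9a was -0.26 (adjusted p = 0.0219), which was lost under 8 alternatives. It was 0.22 (adjusted p = 0.0394) on the log2(TPM + 1) scale, a call in the opposite direction.

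The deposited TPM values are scaled to transcript length as well as library total and allow levels of different ligands to be set beside each other. Between kinds this scale shifts genes as a whole. On log2(TPM + 1) the median of all genes was 0.41 in pEpiC over CDC, 0.07 in CDC-EpiC over CDC and -0.33 in CDC-EpiC over pEpiC. Summed TPM of different kinds, here and for the other roles below, carries that shift. Summed over the 18 Wnt genes, the level was 21.3 ± 1.48 TPM (SD) in CDC, 66.4 ± 2.84 in CDC-EpiC and 43.4 ± 2.00 in pEpiC. In CDC no single ligand held most of it: Wnt9a gave 34.1%, Wnt4 19.6%, Wnt16 16.7% and Wnt5a 16.5% of the sum. Wnt5a gave 54.2% in CDC-EpiC and 59.5% in pEpiC. The order behind it differed, with Wnt9a at 20.8% and Wnt4 at 18.5% in CDC-EpiC, and Wnt9a at 19.8% and Wnt4 at 5.92% in pEpiC.

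Of the 5 Wnt ligands that peaked between 1 and 10 CPM, Wnt7a and Wnt16 were highest in CDC. Wnt7a had 22, 27 and 33 counts in CDC, 9, 5 and 7 in CDC-EpiC and 1, 0 and 2 in pEpiC. Scaled to library size, the 82 counts in CDC were 28.8 times the 3 counts in pEpiC (95% exact interval of the count ratio 9.51 to 142, counting error only) and 3.98 times the 21 counts in CDC-EpiC (2.44 to 6.77). Both differences passed the test (adjusted p = 1.79e-05 and 7e-05). Wnt16 had 77.0 to 96.3 counts in CDC, 19.1 to 28.0 in CDC-EpiC and 18.0 to 30.0 in pEpiC, a log2 change of -1.79 in CDC-EpiC over CDC (adjusted p = 2.35e-06) and -1.84 in pEpiC over CDC (adjusted p = 2.74e-05). The CDC-EpiC and pEpiC libraries of Wnt16 overlapped, at a log2 change of 0.01 ± 0.28 (SE, adjusted p = 0.965).

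Wnt11, which like Wnt5a is known for branches without beta-catenin, was highest in pEpiC, with 34 to 49 counts, against 4 to 13 in CDC and 5 to 10 in CDC-EpiC. Its log2 change was 2.10 in pEpiC over CDC (adjusted p = 0.000363) and -2.42 in CDC-EpiC over pEpiC (adjusted p = 3.88e-05). Wnt5b, the closest relative of Wnt5a, went with it, at 12 to 14 counts in CDC, 43 to 53 in CDC-EpiC and 23 to 32 in pEpiC. For Wnt5b the log2 change was 1.89 in CDC-EpiC over CDC (adjusted p = 5.32e-06), 0.87 in CDC-EpiC over pEpiC (adjusted p = 0.00323) and 0.97 in pEpiC over CDC (adjusted p = 0.00665), the last not called by DESeq2. Wnt2b had 20 to 32 counts over all 9 libraries, its kinds overlapped, and it passed in none of the 3 comparisons, although CDC-EpiC over pEpiC passed on log2(TPM + 1), at -0.23 (adjusted p = 0.0251). The remaining 10 Wnt genes (Wnt1, Wnt2, Wnt3, Wnt6, Wnt7b, Wnt8a, Wnt8b, Wnt9b, Wnt10a and Wnt10b) had at most 9 counts in any library and were not tested. Among them Wnt7b had 4, 5 and 4 counts in CDC, 1, 0 and 2 in CDC-EpiC and 0, 0 and 1 in pEpiC.

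**Figure D2:**
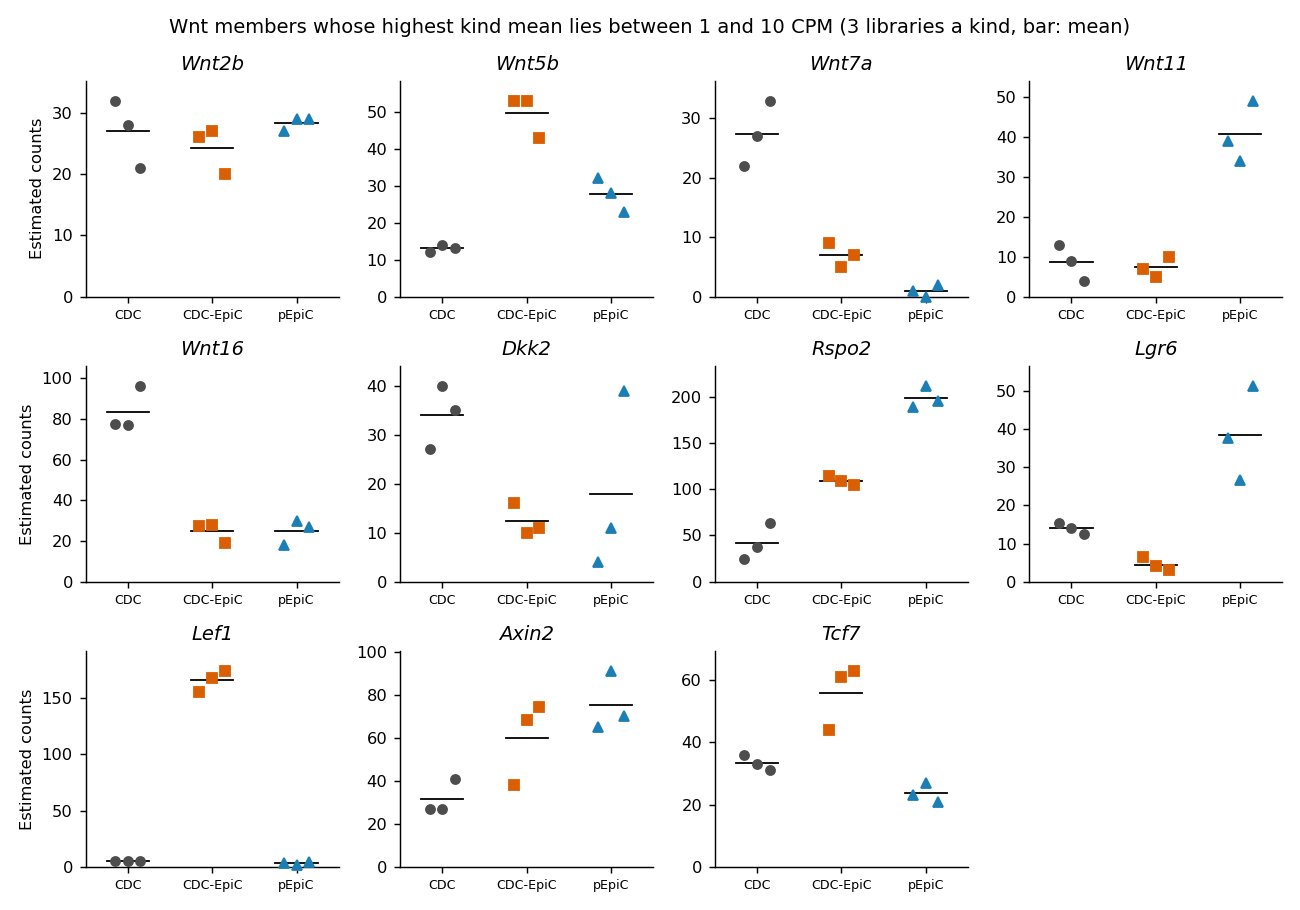
Estimated counts (linear y axis from 0) of the 11 members whose highest kind mean lay between 1 and 10 CPM, with 3 points a kind and a bar at the mean. Lef1 shows 155 to 174 counts in CDC-EpiC and at most 5 elsewhere, and Wnt7a shows 22 to 33 counts in CDC and 0 to 2 in pEpiC. The points of Dkk2 in pEpiC are spread from 4 to 39.

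Frizzled receptors, the membrane receptors for Wnt ligands, separated into those highest in pEpiC and those highest in CDC-EpiC or CDC. Fzd1 and Fzd2 were the most abundant in CDC and pEpiC, and Fzd7 in CDC-EpiC. Fzd1 stood at 75.0, 67.2 and 97.9 CPM in CDC, 52.9, 64.7 and 59.98 in CDC-EpiC and 215, 220 and 195 in pEpiC. Every pEpiC library lay above every other one. Its log2 change was 1.36 ± 0.12 (SE, adjusted p = 2.35e-06) in pEpiC over CDC and -1.84 ± 0.08 (adjusted p = 1.08e-08) in CDC-EpiC over pEpiC, with -0.44 (adjusted p = 0.00341) in CDC-EpiC over CDC. Fzd2 stood at 82.9, 77.1 and 73.3 CPM in CDC, 37.4, 37.9 and 42.1 in CDC-EpiC and 122, 131 and 126 in pEpiC, in 3 ranges that did not overlap. The log2 change of Fzd2 was -1.71 ± 0.06 (adjusted p = 2.41e-09) in CDC-EpiC against pEpiC and -0.9998 against CDC (adjusted p = 2.91e-08), and pEpiC exceeded CDC by 0.67 (adjusted p = 5.89e-06).

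Fzd3, a receptor best known from axon guidance and planar polarity, stood at 1.43, 1.36 and 1.55 CPM in CDC, 2.17, 2.14 and 1.56 in CDC-EpiC and 11.7, 10.8 and 9.08 in pEpiC. CDC and CDC-EpiC lay next to each other, at a log2 change of 0.43 (adjusted p = 0.0937). The pEpiC libraries lay far above both, at a log2 change of 2.82 ± 0.15 (SE, adjusted p = 8.79e-08) over CDC, and CDC-EpiC was at -2.44 ± 0.17 (adjusted p = 3.86e-07) against pEpiC. The transcript length of Fzd3 implied by the deposited counts and FPKM, 12915 bases, was the longest among the members with such a length. In pEpiC over CDC the log2 change of genes rose by 0.44 for each doubling of this length over 10692 genes. With an offset for length the log2 change of Fzd3 was 2.14 in pEpiC over CDC and -1.71 in CDC-EpiC over pEpiC.

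Fzd5, Fzd7 and Fzd4 were higher in CDC-EpiC than in CDC. Fzd5 stood at 33.6, 33.9 and 33.6 CPM in CDC, 58.7, 59.4 and 69.8 in CDC-EpiC and 24.6, 27.1 and 25.0 in pEpiC. CDC-EpiC libraries lay above all others, with a log2 change of 0.88 over CDC (adjusted p = 1.58e-07) and 1.28 over pEpiC (adjusted p = 1.33e-07). The Fzd5 difference of pEpiC over CDC was -0.43 (adjusted p = 0.000115), but 0.06 on log2(TPM + 1), where it did not pass. With an offset for transcript length it was -0.92 (adjusted p = 1.26e-06). Fzd7 stood at 54.0, 50.7 and 59.9 CPM in CDC, 84.3, 95.8 and 95.7 in CDC-EpiC and 74.01, 81.04 and 79.8 in pEpiC. Both other kinds lay above CDC, by 0.74 for CDC-EpiC (log2, adjusted p = 1.44e-06) and 0.48 for pEpiC (log2, adjusted p = 0.000101). The difference of Fzd7 between CDC-EpiC and pEpiC was 0.22 (log2, adjusted p = 0.0071) and turned to -0.16 on log2(TPM + 1).

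Fzd4, also the receptor for norrin in blood vessels, stood at 15.7, 15.2 and 16.8 CPM in CDC, 31.8, 30.1 and 33.6 in CDC-EpiC and 33.7, 30.8 and 32.9 in pEpiC. The last pair of kinds overlapped, at a log2 change of -0.04 ± 0.06 (SE, adjusted p = 0.554) that was -0.40 and passed on log2(TPM + 1), and each was close to 2-fold over CDC, with log2 changes of 0.99 (adjusted p = 5.11e-08) for CDC-EpiC and 0.996 (adjusted p = 5.6e-07) for pEpiC. Fzd6 and Fzd8 went the other way. Fzd6 stood at 51.1, 57.3 and 61.8 CPM in CDC, 41.7, 42.6 and 44.8 in CDC-EpiC and 20.9, 25.7 and 26.3 in pEpiC. It was lowest in every pEpiC library, with log2 changes of -1.26 in pEpiC over CDC (adjusted p = 1.04e-06), -0.41 in CDC-EpiC over CDC (adjusted p = 0.000393) and 0.81 in CDC-EpiC over pEpiC (adjusted p = 7.87e-06). Fzd8 stood at 33.7, 32.4 and 28.9 CPM in CDC, 15.1, 14.7 and 17.7 in CDC-EpiC and 27.5, 29.0 and 24.9 in pEpiC. CDC-EpiC lay below both, by -1.01 ± 0.10 (log2, SE, adjusted p = 1.99e-07) against CDC and -0.79 (log2, adjusted p = 1.69e-05) against pEpiC. The Fzd8 libraries of CDC and pEpiC overlapped, and their log2 change of -0.26 (adjusted p = 0.0166) was lost under 5 alternatives. On log2(TPM + 1) it was 0.23 (adjusted p = 0.0306), past the threshold in the opposite direction. Fzd9 and Fzd10 had at most 8 counts in any library and were not tested, and Fzd10 had 0 counts in all 6 CDC and CDC-EpiC libraries, which allows up to 3 counts in each.

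Summed TPM over the 10 Frizzled genes was 147 ± 12.7 (SD) in CDC, 141 ± 10.3 in CDC-EpiC and 306 ± 14.4 in pEpiC. Fzd1 and Fzd2 together led in pEpiC, at 37.8% and 27.5% of the sum. The sum was spread more evenly in CDC-EpiC, where Fzd7 held 24.9%, Fzd1 17.6%, Fzd2 14.1%, Fzd6 13.8%, Fzd5 11.8% and Fzd4 11.3%.

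The coreceptors Lrp5 and Lrp6, single-pass proteins that pair with Frizzled receptors for beta-catenin signalling, behaved differently. Lrp6 stood at 60.3, 56.8 and 72.7 CPM in CDC, 62.4, 62.3 and 62.1 in CDC-EpiC and 162, 162 and 166 in pEpiC. CDC and CDC-EpiC overlapped, at a log2 change of -0.03 ± 0.09 (SE, adjusted p = 0.763), and pEpiC lay above them, by 1.33 ± 0.08 over CDC (log2, adjusted p = 2.18e-07), with CDC-EpiC at -1.41 ± 0.04 against pEpiC (log2, adjusted p = 1.45e-09). Lrp6 had the next longest implied transcript length after Fzd3, 9452 bases. With an offset for length these changes of Lrp6 were 0.72 and -0.77, both still past the threshold. Lrp5 stood at 98.6, 88.6 and 97.1 CPM in CDC, 73.7, 84.3 and 84.7 in CDC-EpiC and 86.2, 87.8 and 87.1 in pEpiC. The ranges lay close together, although they did not overlap, and the log2 changes of Lrp5 were small but moved with the scale. Its calls, -0.24 in CDC-EpiC over CDC (adjusted p = 0.0156) and -0.16 in pEpiC over CDC (adjusted p = 0.0266), were each lost on leaving out single libraries, and the second was -0.50 (adjusted p = 9.35e-06) with an offset for length but 0.34 (adjusted p = 0.00217), in the opposite direction, on log2(TPM + 1). The log2 change of CDC-EpiC over pEpiC, -0.12 (adjusted p = 0.075), was 0.19 (adjusted p = 0.00858) with an offset for length and -0.49 (adjusted p = 0.000111) on log2(TPM + 1). In TPM, Lrp6 made up 26.9% of the pair in CDC, 29.9% in CDC-EpiC and 50.9% in pEpiC.

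**Figure D3:**
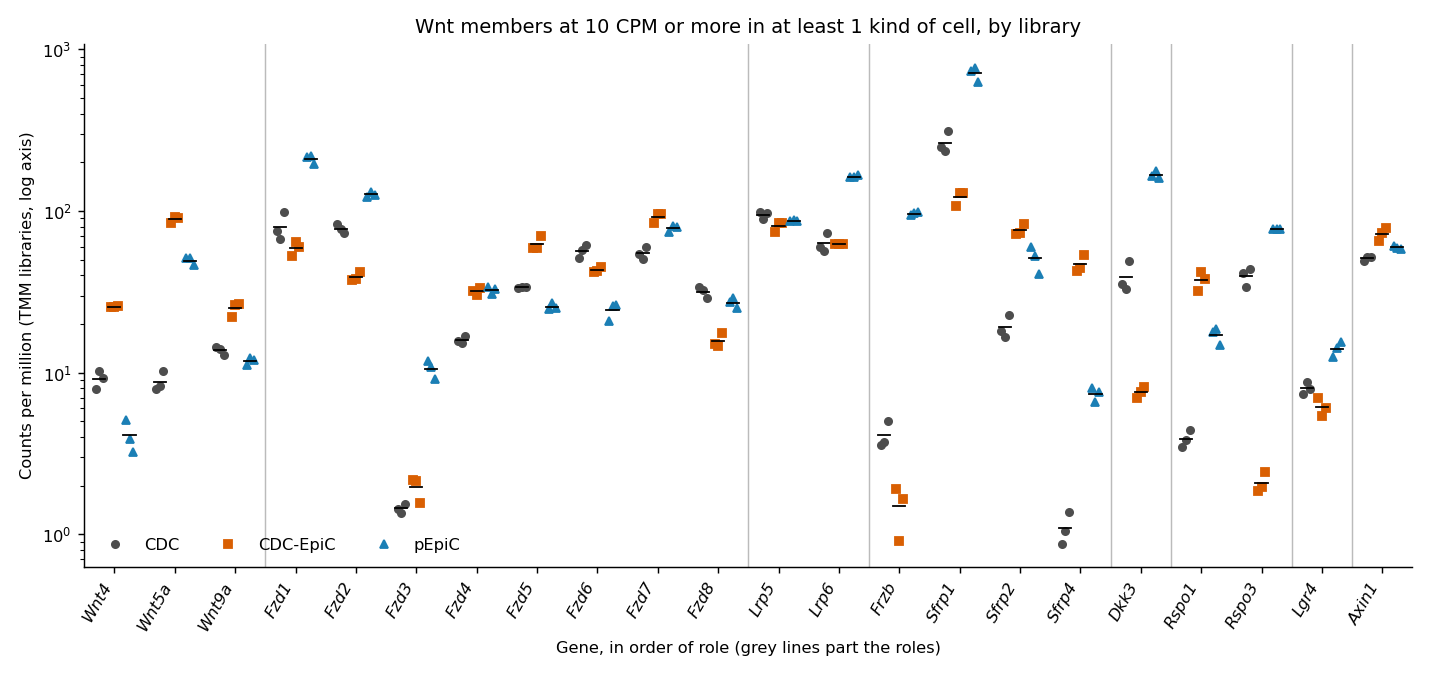
CPM (log y axis) of the 22 members at 10 CPM or more in at least 1 kind, 1 point a library and a bar at the mean, in order of role along the x axis. Frzb, Dkk3 and Rspo3 show CDC-EpiC lowest and pEpiC highest, and Sfrp4, Wnt5a and Rspo1 show CDC lowest and CDC-EpiC highest. Lrp5 shows 3 kinds between 73.7 and 98.6 CPM.

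The secreted Frizzled-related inhibitors held the widest change among the members at 10 CPM or more in each comparison. These proteins carry the Wnt-binding domain of Frizzled receptors without the membrane anchor. Sfrp1, the most abundant member in CPM and TPM in CDC and pEpiC, stood at 248, 234 and 312 CPM in CDC, 108, 129 and 130 in CDC-EpiC and 736, 769 and 626 in pEpiC. The 3 kinds did not overlap, with CDC-EpiC lowest. Its log2 change was 1.39 ± 0.11 (SE, adjusted p = 1.49e-06) in pEpiC over CDC, -1.13 ± 0.11 (adjusted p = 2.03e-07) in CDC-EpiC over CDC and -2.56 ± 0.10 (adjusted p = 5.64e-09) in CDC-EpiC over pEpiC.

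Frzb, first described in cartilage, followed the same order more steeply. It stood at 3.55, 3.72 and 5.05 CPM in CDC, 1.91, 0.911 and 1.65 in CDC-EpiC and 94.2, 96.7 and 98.2 in pEpiC. Every pEpiC library lay over 10-fold above every other one. The log2 change was 4.51 ± 0.10 (adjusted p = 3.25e-10) in pEpiC over CDC, a 22.9-fold difference, -6.02 ± 0.13 (adjusted p = 1.44e-10) in CDC-EpiC over pEpiC and -1.47 ± 0.24 (adjusted p = 6.61e-05) in CDC-EpiC over CDC.

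Sfrp4 and Sfrp2 ran in the other order, with CDC lowest and CDC-EpiC highest. Sfrp4 stood at 0.876, 1.04 and 1.37 CPM in CDC, 42.8, 44.2 and 53.8 in CDC-EpiC and 8.06, 6.59 and 7.596 in pEpiC. No kinds overlapped. The log2 change of Sfrp4 was 5.41 ± 0.15 (adjusted p = 1.76e-13) in CDC-EpiC over CDC, a 42.4-fold difference, 2.72 ± 0.19 (adjusted p = 4.43e-07) in pEpiC over CDC and 2.65 ± 0.11 (adjusted p = 1.03e-08) in CDC-EpiC over pEpiC. Sfrp2 stood at 18.1, 16.5 and 22.6 CPM in CDC, 72.1, 72.9 and 83.1 in CDC-EpiC and 59.9, 52.3 and 40.6 in pEpiC. CDC lay below both, by 1.99 ± 0.10 for CDC-EpiC (log2, adjusted p = 2.16e-10) and 1.38 ± 0.15 for pEpiC (log2, adjusted p = 1.12e-05). The Sfrp2 difference between CDC-EpiC and pEpiC, 0.56 (log2, adjusted p = 0.00161), was lost with an offset for transcript length, at 0.26 (adjusted p = 0.0717), and on log2(TPM + 1). Sfrp5 had at most 2 counts in any library.

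Summed over the 5 genes, the level was 127 ± 25.0 TPM (SD) in CDC, 173 ± 19.3 in CDC-EpiC and 545 ± 53.5 in pEpiC. Sfrp1 gave 83.6% of the sum in CDC and 71.9% in pEpiC, where Frzb gave 14.8%. In CDC-EpiC the sum was shared between Sfrp2 (41.4%), Sfrp1 (29.5%) and Sfrp4 (28.6%). These shares varied little between libraries: that of Sfrp4 was 27.5% to 29.8% in CDC-EpiC and 0.745% to 0.941% in CDC.

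Dkk3, which unlike the other Dickkopf proteins is not known as a blocker of Lrp5 and Lrp6, was the only Dickkopf gene above 10 CPM. It stood at 35.6, 32.7 and 49.2 CPM in CDC, 7.01, 7.56 and 8.14 in CDC-EpiC and 164, 176 and 161 in pEpiC. The kinds did not overlap and CDC-EpiC was lowest, as for Sfrp1 and Frzb. For Dkk3 the log2 change was 2.06 ± 0.12 (adjusted p = 1.93e-07) in pEpiC over CDC, -2.38 ± 0.14 (adjusted p = 7.39e-10) in CDC-EpiC over CDC and -4.48 ± 0.07 (adjusted p = 3.45e-11) in CDC-EpiC over pEpiC. Dkk2 had 27, 40 and 35 counts in CDC, 16, 10 and 11 in CDC-EpiC and 4, 11 and 39 in pEpiC. Against CDC, Dkk2 was lower in CDC-EpiC, at a log2 change of -1.49 (adjusted p = 0.000255). In pEpiC 1 library decided the level of Dkk2: the log2 change of pEpiC over CDC, -1.02 (adjusted p = 0.121), was -2.28 (adjusted p = 0.0012) without library 3, and the log2 change of CDC-EpiC over pEpiC, -0.51 (adjusted p = 0.487), was 0.74 (adjusted p = 0.196) without library 3. Dkk1, the classic Lrp6 blocker, had 2.27 to 8.98 counts over the 9 libraries and was not tested.

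The R-spondins showed an exchange of the leading gene. Rspo1 and Rspo3 are secreted amplifiers of Wnt signalling, and Rspo1 (chr4:124986401-125009102) is known from gonad development while Rspo3 (chr10:29453106-29535867) is needed in blood vessel and heart development. Rspo3 stood at 41.6, 34.0 and 43.8 CPM in CDC, 1.86, 1.96 and 2.45 in CDC-EpiC and 77.4, 77.1 and 77.8 in pEpiC. The CDC-EpiC libraries were over 10-fold below every other library. Its log2 change was -4.26 ± 0.14 (adjusted p = 6.71e-13) in CDC-EpiC over CDC, -5.22 ± 0.08 (adjusted p = 3.45e-11) in CDC-EpiC over pEpiC and 0.92 (adjusted p = 2.87e-06) in pEpiC over CDC.

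Rspo1 stood at 3.46, 3.81 and 4.42 CPM in CDC, 32.1, 42.1 and 38.0 in CDC-EpiC and 17.8, 18.5 and 14.8 in pEpiC. CDC was lowest and CDC-EpiC highest, without overlap. The log2 change of Rspo1 was 3.25 ± 0.13 (adjusted p = 5.81e-12) in CDC-EpiC over CDC, a 9.53-fold difference, 2.09 ± 0.13 (adjusted p = 2.07e-07) in pEpiC over CDC and 1.12 (adjusted p = 6.15e-06) in CDC-EpiC over pEpiC. Rspo2 was lower, with 25 to 63 counts in CDC, 105 to 114 in CDC-EpiC and 189 to 212 in pEpiC, and all 3 of its differences passed, at log2 changes of 1.35 in CDC-EpiC over CDC (adjusted p = 0.000125), 2.14 in pEpiC over CDC (adjusted p = 1.92e-05) and -0.83 in CDC-EpiC over pEpiC (adjusted p = 5.51e-05). Rspo4 had at most 2 counts in any library. In TPM, the summed R-spondin level was 34.1 ± 5.27 (SD) in CDC, 42.3 ± 4.98 in CDC-EpiC and 107 ± 3.35 in pEpiC. Rspo3 held 84.2% to 88.1% of that sum in the CDC libraries and 71.6% to 75.1% in pEpiC, whereas Rspo1 held 88.6% to 91.2% in CDC-EpiC and Rspo3 3.19% to 4.37%.

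**Figure D4:**
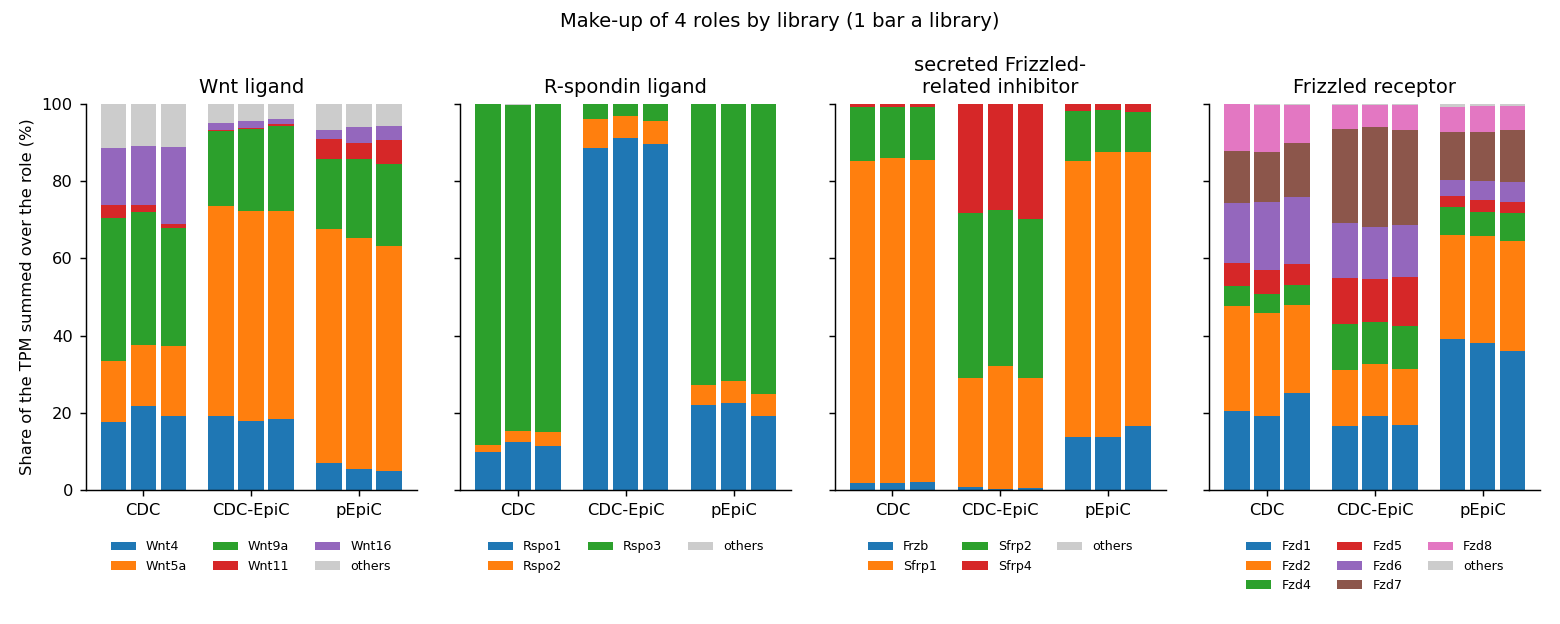
Share of each gene in the TPM summed over its role (y axis, percent), 1 bar a library, for the Wnt ligands, the R-spondins, the secreted Frizzled-related inhibitors and the Frizzled receptors. Genes that never reach 5% are pooled as others. In the R-spondin panel Rspo3 fills most of the CDC and pEpiC bars and Rspo1 fills 88.6% to 91.2% of the CDC-EpiC bars.

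Receptors for R-spondins were modest in level and lowest in CDC-EpiC. Lgr4 stood at 7.42, 8.80 and 7.92 CPM in CDC, 6.96, 5.38 and 6.05 in CDC-EpiC and 12.5, 14.2 and 15.5 in pEpiC. The pEpiC libraries lay above all others, with a log2 change of 0.77 over CDC (adjusted p = 0.000121), with CDC-EpiC at -1.21 against pEpiC (adjusted p = 9.66e-06). The smaller difference of CDC-EpiC against CDC, -0.40 (adjusted p = 0.0155), was lost without CDC library 2 or CDC-EpiC library 2. Lgr6 had 12.5 to 15.4 counts in CDC, 2.97 to 6.43 in CDC-EpiC and 26.7 to 51.3 in pEpiC, with log2 changes of 1.35 in pEpiC over CDC (adjusted p = 0.00193), -1.70 in CDC-EpiC over CDC (adjusted p = 0.00161, not passed on the FPKM or TPM scale) and -3.09 in CDC-EpiC over pEpiC (adjusted p = 3.38e-05). Lgr5, a stem cell marker of the gut, had 7.62 to 9.48 counts in pEpiC and at most 2.14 elsewhere, and was not tested.

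Of the 4 intracellular members, Lef1 changed most. Lef1 (chr3:131110297-131224357) and Tcf7 are DNA-binding partners of beta-catenin, Axin1 is the scaffold of the complex that destroys beta-catenin, and Axin2 is a related scaffold that is itself a widely used target gene of the pathway. Lef1 had 5, 5 and 5 counts in CDC, 155, 168 and 174 in CDC-EpiC and 3, 2 and 4 in pEpiC. The CDC-EpiC libraries averaged 7.42 ± 0.477 CPM (SD), and the log2 change was 4.98 ± 0.22 over CDC (SE, adjusted p = 3.58e-11) and 5.76 ± 0.23 over pEpiC (adjusted p = 8.47e-09). Since the other kinds rest on 15 and 9 counts, the scaled ratios of counts were 32.5 (95% exact interval 19.5 to 58.5, counting error only) over CDC and 57.1 (29.8 to 126) over pEpiC. Lef1 was too low to be tested between pEpiC and CDC.

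Tcf7 had 31 to 36 counts in CDC, 44 to 63 in CDC-EpiC and 21 to 27 in pEpiC. Its kinds did not overlap. As for Lef1, CDC-EpiC was highest, but the differences were much smaller. The log2 change of Tcf7 was 0.71 in CDC-EpiC over CDC (adjusted p = 0.00801) and 1.27 in CDC-EpiC over pEpiC (adjusted p = 0.000418). The difference of Tcf7 between pEpiC and CDC, -0.60 (adjusted p = 0.0303), was lost under 9 alternatives. Axin2 had 27, 27 and 41 counts in CDC, 38, 68 and 74 in CDC-EpiC and 65, 91 and 70 in pEpiC. CDC and CDC-EpiC overlapped. Axin2 had a log2 change of 0.88 in CDC-EpiC over CDC (adjusted p = 0.00842), which did not pass without CDC-EpiC library 3, 1.14 in pEpiC over CDC (adjusted p = 0.00103), and -0.29 in CDC-EpiC over pEpiC (adjusted p = 0.299).

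Axin1 stood at 49.2, 51.6 and 51.8 CPM in CDC, 64.9, 73.0 and 78.4 in CDC-EpiC and 60.9, 59.4 and 58.1 in pEpiC. CDC was lowest, with log2 changes of 0.49 for CDC-EpiC (adjusted p = 6.38e-05) and 0.19 for pEpiC (adjusted p = 0.00981). The second was lost with an offset for length, and the difference of CDC-EpiC over pEpiC, 0.26 (adjusted p = 0.00411), was -0.13 on log2(TPM + 1). The summed level of the 4 genes, 27.03 ± 1.501 TPM (SD) in CDC, 44.6 ± 4.59 in CDC-EpiC and 43.9 ± 1.21 in pEpiC, was mostly Axin1, at 84.2% or more in each kind.

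Promoter windows are shown for Lef1, the intracellular member with the largest rise in CDC-EpiC, for Axin2, the textbook target gene, and for Wnt5b, a ligand higher in CDC-EpiC that was added because 1 of its 3 windows held one of the words searched. RefSeq windows from 250 bases before to 50 bases after a start site (GRCm38.p6) were matched for 32 of the 49 members, in 39 windows. They were searched on both strands for the word CTTTGAA and its variants written CTTTGAT, also as CTTTGTA, and lastly as CTTTGTT, the core letters bound by Lef1 and Tcf proteins, and no other motif was searched. Of the member windows 6 (15.4%) held a word, against 5544 of all 32851 windows (16.9%). Before the start site, words lay in windows of Dkk1, Fzd7, Lef1, Wnt11 and Wnt5b. The 250 bases before the start follow, with a word in capitals where there was one. Lef1 had 4 windows, of which 1 held a word, and a window without and the window with it are printed. The first (chr3:131110047-131110296, plus strand) lies before the outermost start of the gene and overlaps an exon of the antisense gene Gm43352, and the second (chr3:131156044-131156293, plus strand) before a start inside it, with the word on the minus strand beginning 147 bases before the start. Axin2 is chr11:108920099-108920348 (plus strand), before a start inside the gene, which spans chr11:108917828-108950783, and not before its outermost start. Wnt5b is chr6:119449387-119449636 (minus strand), also before a start inside the gene, with the word 71 bases before it.
Lef1, outermost start: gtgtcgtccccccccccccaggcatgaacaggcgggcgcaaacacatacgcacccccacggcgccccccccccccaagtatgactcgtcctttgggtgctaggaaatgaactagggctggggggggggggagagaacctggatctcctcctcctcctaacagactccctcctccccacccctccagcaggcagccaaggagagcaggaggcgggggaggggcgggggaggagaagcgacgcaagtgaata
Lef1, inner start: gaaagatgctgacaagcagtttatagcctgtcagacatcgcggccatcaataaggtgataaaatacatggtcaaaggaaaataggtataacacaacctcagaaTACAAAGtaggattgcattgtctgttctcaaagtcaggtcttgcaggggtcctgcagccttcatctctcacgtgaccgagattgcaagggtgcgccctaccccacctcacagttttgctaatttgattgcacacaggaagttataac
Axin2: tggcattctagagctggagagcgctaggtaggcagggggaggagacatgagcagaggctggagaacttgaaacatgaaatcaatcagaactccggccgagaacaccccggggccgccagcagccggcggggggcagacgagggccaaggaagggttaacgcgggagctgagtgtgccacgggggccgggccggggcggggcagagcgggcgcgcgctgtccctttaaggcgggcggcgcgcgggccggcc
Wnt5b, inner start: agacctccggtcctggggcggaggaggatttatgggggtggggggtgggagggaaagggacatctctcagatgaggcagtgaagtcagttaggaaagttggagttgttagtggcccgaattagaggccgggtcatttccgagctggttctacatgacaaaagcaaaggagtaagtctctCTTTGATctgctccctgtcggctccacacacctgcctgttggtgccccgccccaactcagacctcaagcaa

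The windows before the inner Axin2 start and the outermost Lef1 start held none of these 7-letter words, which says only that the letters are not in these windows. Which start site was used in each kind of cell was not measured, since the table gives 1 value a gene.

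Outside the module, 111 further genes of Wnt signalling were in the table, in lists chosen with earlier results of these data known. Between pEpiC and CDC, 78 of 102 tested passed, 52 higher and 26 lower in pEpiC, at a median log2 change of 0.22, where 78.3% of all genes passed (39.8% higher, 38.5% lower), so that the count was close to the background. The split of these calls also moved with the scale, to 59 and 18 with library size alone, 58 and 19 on log2(FPKM + 1), 77 and 10 on log2(TPM + 1), and 45 and 34 with an offset for length. The largest rises were Gpc3, a cell surface glypican, at a log2 change of 5.39 (adjusted p = 2.04e-09), Cthrc1, a secreted collagen triple helix protein, at 3.36 (adjusted p = 1.94e-09), and Sox9, a transcription factor of cartilage and valve cells, at 2.45 (adjusted p = 1.83e-09). The largest falls were Fosl1, a subunit of AP-1, at -4.09 (adjusted p = 1.75e-09), Ccnd1, which encodes cyclin D1, at -1.44 (adjusted p = 5.59e-08), and Myc at -1.35 (adjusted p = 1.11e-06). Sox9 and these 3 genes are all reported elsewhere as targets of beta-catenin. Of 12 such targets tested, 5 were higher and 5 lower in pEpiC.

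Between CDC-EpiC and CDC, 78 of 99 of these genes passed, 37 higher and 41 lower in CDC-EpiC, with a median log2 change of -0.05, where 68.8% of all genes passed (34.2% higher, 34.6% lower). Wisp2 and Wisp1, matricellular proteins reported as Wnt-induced, had log2 changes of -5.69 (adjusted p = 1.27e-14) and -4.70 (adjusted p = 8.07e-14). Wisp2 averaged 544 CPM in CDC, 10.6 in CDC-EpiC and 486 in pEpiC, and Wisp1 averaged 252, 9.78 and 289 CPM. Nkd2, an inhibitor that binds Dishevelled, fell by 2.99 (log2, adjusted p = 8.27e-13), from 65.9 to 8.32 CPM. Its relative Nkd1, named here after its values were seen, rose by 1.70 (log2, adjusted p = 1.34e-10), from 36.1 to 118 CPM. Nkd1 is, like Wisp1 and Wisp2, in the list of reported beta-catenin targets. Of 13 genes of that list tested, 5 were higher and 8 lower in CDC-EpiC. The largest rises were Celsr1, a cadherin of planar polarity, at 4.89 (log2, adjusted p = 1.31e-12), Daam2, a formin that binds Dishevelled, at 2.93 (adjusted p = 9.86e-13), and Camk2b, a calcium-dependent kinase, at 2.12 (adjusted p = 2e-09). Relatives of Camk2b did not rise. The more abundant Camk2d fell from 89.4 to 37.0 CPM (log2 -1.28, adjusted p = 1.05e-09). Camk2a had a log2 change of -2.06 (adjusted p = 5.64e-07), and Camk2g did not pass.

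Between CDC-EpiC and pEpiC, 89 of 101 passed, 33 higher and 56 lower in CDC-EpiC, with a median log2 change of -0.36, where 81.9% of all genes passed (40.3% higher, 41.5% lower). On log2(TPM + 1) the split was 22 and 66. Celsr1 (5.31, adjusted p = 4.07e-10), Draxin, a secreted guidance protein that binds Wnt coreceptors (4.93, adjusted p = 7.24e-09), and Daam2 (3.50, adjusted p = 4.47e-11) rose most on the log2 scale. Wisp2 fell by 5.53 (log2, adjusted p = 5.17e-11). Cthrc1 and Gpc3 each had 1 count over the 3 CDC-EpiC libraries, against 3219 and 2957 counts in pEpiC, and the scaled ratio of pEpiC to CDC-EpiC had a 95% exact interval (counting error only) that began at 559 for Cthrc1 and 513 for Gpc3.

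Over all genes, 78.3% were called in pEpiC over CDC, 68.8% in CDC-EpiC over CDC and 81.9% in CDC-EpiC over pEpiC. By list, the beta-catenin targets showed no common direction in pEpiC over CDC, with 5 higher and 5 lower of 12 tested. In CDC-EpiC over CDC all 13 tested passed, 5 higher (Axin2 is not in this list) and 8 lower, and against pEpiC 6 were higher and 6 lower of 13. Of 14 nuclear partners and corepressors tested, 10 were higher and 3 lower in CDC-EpiC than in CDC, at a median log2 change of 0.32. The cytoplasmic list split 11 and 11 of 28 there, and 17 higher to 8 lower of 30 in pEpiC over CDC. Genes for Wnt secretion and extracellular binding were 7 higher and 2 lower of 10 in pEpiC over CDC, and 3 higher and 7 lower of 11 in CDC-EpiC over CDC.

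**Figure D5:**
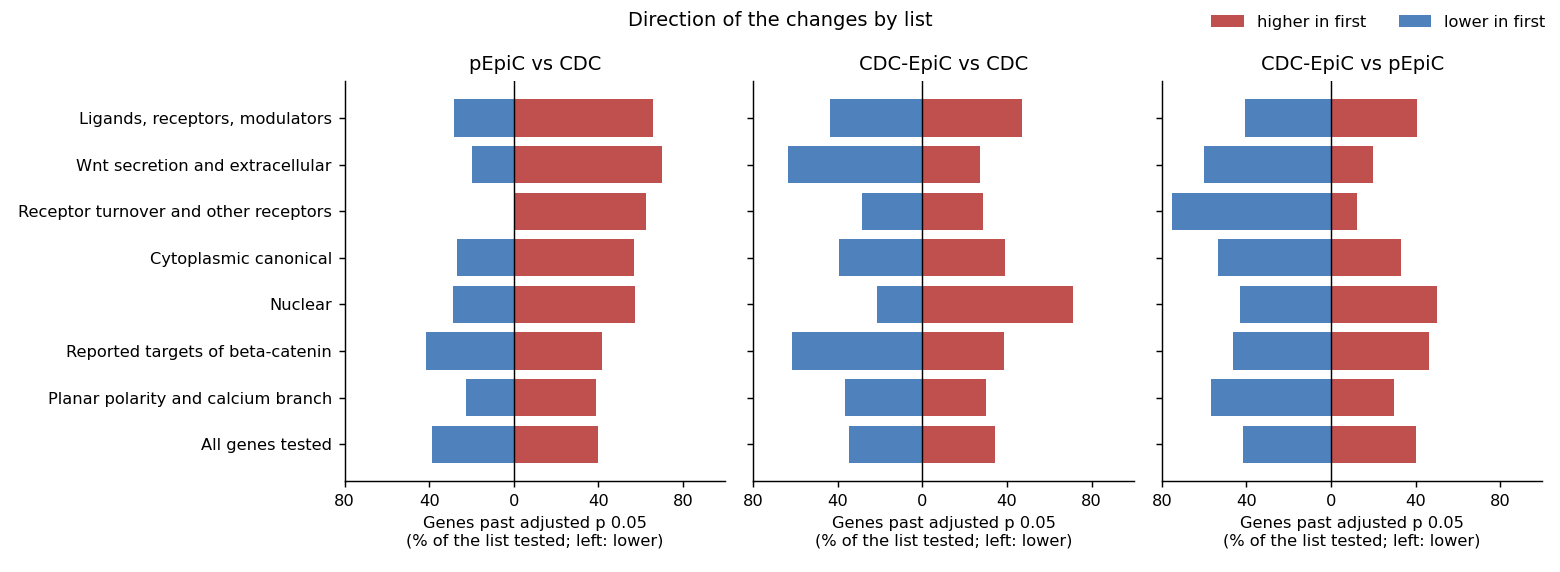
Share of tested genes past an adjusted p of 0.05 in each list (x axis, percent of the list; right higher and left lower in the first kind), with the 49-gene module at the top and all genes tested at the bottom. In the CDC-EpiC over CDC panel the nuclear list reaches farthest right, at 10 of 14 genes, and in the pEpiC over CDC panel the receptor turnover list has no genes on the left.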

How the data were processed

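RNA-seq of 3 kinds of cultured mouse cell gave 9 libraries, 3 a kind. The table deposited by the authors holds, per gene and library, expected counts, FPKM and TPM. The submitters' processing notes name HISAT2 2.0.4, Bowtie2 2.2.5, RSEM 1.2.12, DESeq2 1.4.5 and the mm10 build, without their roles, and the use of strand in counting is not given in the sources used here. Of the deposited expected counts, 30.3% were not whole, and all were rounded before testing. The 9 columns of means by kind, which belong to no single library, and the authors' own comparisons were not used.

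Libraries held 22008833 to 22756045 counts. Each pair of kinds was fitted alone over all genes with edgeR 4.0.16 (R 4.3.3): a filter on low counts (minimum 10, total 15), TMM scaling, the quasi-likelihood test and Benjamini-Hochberg adjustment at 0.05. Alternatives were DESeq2 1.42.0, other scalings and filters, all 9 libraries in 1 fit, limma 3.58.1 on log2(FPKM + 1) and log2(TPM + 1) (pseudocount 1, so that changes of low genes are understated), a test against a 1.5-fold change, an offset for transcript length, a replicate block and leaving out each library. The fit was tested on simulated data. Tables and plots used Python 3.11.15, pandas 2.3.3, NumPy 2.4.6 and matplotlib 3.10.9. Intervals are exact 95% intervals of count ratios, and they and the limit of 3 counts for a library at 0 cover counting error only.

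Values in every library are given for members at 10 CPM or more in a kind, full statistics for up to 10 of them a comparison by size of change, and the 3 largest rises and falls among other pathway genes at 10 CPM or more in the higher kind. Earlier results of these data were known when the members and lists were chosen, and the members were set by symbol alone, without use of a measured value. Sequences are from RefSeq (GRCm38.p6, the assembly of mm10).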

Additional observations from a re-analysis of the deposited data

How the results depend on the processing

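Each count of members past the threshold stayed within 1.5 times its value under the alternatives run: 21 to 34 between pEpiC and CDC, 22 to 29 between CDC-EpiC and CDC, and 22 to 30 between CDC-EpiC and pEpiC, with the lowest from the test against a 1.5-fold change. Under that test, the other pathway genes past the threshold were 37, 42 and 59, against 78, 78 and 89, since it asks for a larger change. The members' median log2 change moved, in pEpiC over CDC, from 0.95 to 1.06 with library size alone, 0.58 on log2(FPKM + 1) and 0.80 with the length offset. In CDC-EpiC over CDC it moved from 0.20 to 0.42 with at least 10 counts in every library, 0.041 on log2(FPKM + 1) and 0.074 on log2(TPM + 1). In CDC-EpiC over pEpiC it moved from -0.15 to -0.061 on log2(FPKM + 1), to -0.32 on log2(TPM + 1), and ranged from -0.21 to -0.051 on leaving out a library, the second without CDC-EpiC library 1. The cause was not tested.

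Of 1622 alternative values for single members, 1525 kept direction and call, 62 lost the call, 8 gained it and 27 changed sign. On log2(TPM + 1), pEpiC over CDC turned to 0.064 for Fzd5, 0.23 for Fzd8, 0.34 for Lrp5 and 0.22 for Wnt9a, and CDC-EpiC over pEpiC to -0.13 for Axin1 and -0.16 for Fzd7. With the length offset, CDC-EpiC over pEpiC turned to 0.075 for Fzd4 and 0.19 for Lrp5. These 2 differences with the length offset, and those of Wnt2b, Lrp6, Dkk2 and Wnt16 given next, did not pass in the main fit. The differences named above for log2(TPM + 1) did pass in the main fit. In pEpiC over CDC, those of Fzd8, Lrp5 and Wnt9a also passed on log2(TPM + 1), in the opposite direction. Wnt2b in pEpiC over CDC turned to 0.071 with library size alone, 0.0032 with all 9 libraries in 1 fit, 0.019 on log2(FPKM + 1) and 0.19 on log2(TPM + 1), and ranged from -0.21 to 0.097 on leaving out a library. Lrp6 in CDC-EpiC over CDC turned to 0.028 with library size alone, 0.030 on log2(FPKM + 1) and 0.050 on log2(TPM + 1), and ranged from -0.10 to 0.077. In CDC-EpiC over pEpiC, leaving out a library gave -0.99 to 0.74 for Dkk2, -0.084 to 0.0014 for Fzd4 and -0.18 to 0.18 for Wnt16, and Wnt16 was -0.0057 with relative log expression scaling, -0.034 with at least 10 counts in every library, -0.029 on log2(FPKM + 1), -0.24 on log2(TPM + 1) and -0.33 with the length offset. The cause was not tested.

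Library numbers were taken from the columns and do not pair the samples: deviations of same-numbered libraries correlated at -0.16 to 0.11. With the number as a replicate block, 31, 29 and 26 members passed in the 3 comparisons, and 75, 77 and 89 of the other pathway genes. Depth limits the 16 members under 1 CPM, none of which was tested.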

Other observations

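The planar polarity and calcium branch of Wnt signalling, 31 genes in the table, was described above only through Celsr1, Daam2, Camk2a, Camk2b, Camk2d and Camk2g. Between pEpiC and CDC, 19 of 31 passed, 12 higher and 7 lower in pEpiC. Between CDC-EpiC and CDC, 20 of 30 passed, 9 higher and 11 lower in CDC-EpiC, and against pEpiC 26 of 30, 9 higher and 17 lower. The list's median log2 change was 0.04, -0.12 and -0.32 in these comparisons, beside 0.02, 0.00 and -0.02 for all genes. The shares of all genes that passed were 78.3%, 68.8% and 81.9%. Among the receptor turnover genes, which include the ligases that remove Frizzled proteins from the surface, 5 of 8 passed between pEpiC and CDC, all higher in pEpiC, and 7 of 8 between CDC-EpiC and pEpiC, 1 higher and 6 lower in CDC-EpiC.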
